A study of Rattus norvegicus with 12 samples.

Results

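Transcripts of 3 uncoupling proteins (Ucp1, Ucp2 and Ucp3), both PGC-1 coactivators (Ppargc1a and Ppargc1b) and the type 2 deiodinase Dio2 were followed in rat epididymal fat. Every probe whose gene symbol in the platform annotation is 1 of these 6 names was taken. This gave 6 of the 22523 probes on the chip, 1 for each gene, and 6 of its 13337 genes with a symbol. The genes and their RefSeq transcripts are Ucp1 (NM_012682), Ucp2 (NM_019354), Ucp3 (NM_013167), Ppargc1a (NM_031347), Ppargc1b (NM_176075) and Dio2 (NM_031720).

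RNA came from epididymal adipose tissue of male Sprague-Dawley rats aged 40 days, hybridized to 12 arrays of a RatRef-12 Expression BeadChip. From the labels, 6 arrays are of rats whose food had been removed 6 h before sampling, and 6 are of rats fed ad lib. The study's methods describe groups of 6 rats and give another duration and clock time for the food removal than the labels do, and the labels name no individual rat. No allele or drug is involved. Whole tissue was used, so fewer cells of a type and less RNA per cell cannot be told apart. The raw median signal was 105.3 to 139.6 on arrays labelled food removed and 91.11 to 137.3 on arrays labelled ad lib. The share of probes detected was 51.25 to 59.64% on arrays labelled food removed and 51.32 to 56.81% on arrays labelled ad lib. Values below are background-corrected, quantile-normalized log2 signals, and a fold change is always food removed over ad lib.

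Uncoupling proteins are carriers of the inner mitochondrial membrane. UCP1 lets protons flow back across it without ATP synthesis and makes heat in brown and beige fat cells. UCP2 is found in many tissues, immune cells among them, and UCP3 mainly in skeletal muscle and brown fat, where its mRNA follows the supply of fatty acids. PGC-1α and PGC-1β, the products of Ppargc1a and Ppargc1b, bind nuclear receptors and other transcription factors and raise the transcription of mitochondrial genes. PGC-1α is induced by adrenergic signalling and cAMP. DIO2 converts thyroxine to the active hormone T3 inside the cell and takes part in the thermogenic response of brown fat.

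The promoters are shown because the isoforms of each family are related proteins whose start regions differ in base composition and in motifs. Each is the RefSeq window on the GRCr8 assembly from 250 bases before to 50 bases after a start of the gene, written in the direction of transcription. Capitals mark the matches to 6 motifs searched on both strands.
Ucp1: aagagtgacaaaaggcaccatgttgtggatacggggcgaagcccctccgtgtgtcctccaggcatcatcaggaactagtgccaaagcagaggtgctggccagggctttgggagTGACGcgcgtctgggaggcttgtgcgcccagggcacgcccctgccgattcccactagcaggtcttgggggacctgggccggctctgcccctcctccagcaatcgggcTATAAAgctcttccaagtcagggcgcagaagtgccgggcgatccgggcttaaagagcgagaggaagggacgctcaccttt
Ucp2: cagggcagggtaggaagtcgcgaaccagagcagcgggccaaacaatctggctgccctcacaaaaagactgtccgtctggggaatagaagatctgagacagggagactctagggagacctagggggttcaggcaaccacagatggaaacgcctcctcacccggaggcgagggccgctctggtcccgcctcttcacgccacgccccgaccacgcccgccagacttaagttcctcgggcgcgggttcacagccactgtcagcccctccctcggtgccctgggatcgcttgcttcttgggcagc
Ucp3: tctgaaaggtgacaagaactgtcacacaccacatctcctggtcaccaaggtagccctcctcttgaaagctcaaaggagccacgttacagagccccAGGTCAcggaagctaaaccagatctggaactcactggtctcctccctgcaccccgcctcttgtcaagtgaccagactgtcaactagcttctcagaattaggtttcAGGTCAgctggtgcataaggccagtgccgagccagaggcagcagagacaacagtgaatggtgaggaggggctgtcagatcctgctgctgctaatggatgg
Ppargc1a: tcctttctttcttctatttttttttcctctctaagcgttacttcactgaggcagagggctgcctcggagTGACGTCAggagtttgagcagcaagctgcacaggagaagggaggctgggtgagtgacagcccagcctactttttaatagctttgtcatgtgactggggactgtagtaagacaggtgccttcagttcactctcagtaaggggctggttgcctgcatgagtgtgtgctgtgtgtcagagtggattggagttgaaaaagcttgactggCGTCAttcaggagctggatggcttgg
Ppargc1b: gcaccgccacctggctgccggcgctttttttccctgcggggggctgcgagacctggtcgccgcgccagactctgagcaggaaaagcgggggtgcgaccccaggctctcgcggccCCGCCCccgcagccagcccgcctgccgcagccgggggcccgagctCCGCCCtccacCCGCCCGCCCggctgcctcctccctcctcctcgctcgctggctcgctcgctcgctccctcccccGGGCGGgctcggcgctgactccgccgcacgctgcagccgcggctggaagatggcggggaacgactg
The windows lie at chr19:41721372-41721671 (minus strand) for Ucp1, chr1:164251123-164251422 (plus) for Ucp2, chr1:164227660-164227959 (plus) for Ucp3, chr14:63634058-63634357 (plus) for Ppargc1a and chr18:57131417-57131716 (minus) for Ppargc1b. The Ppargc1a start lies inside the annotated span of that gene (bases 63073505 to 63729215).

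Ucp1 holds a TATA box (TATAAA, in 14.2% of 33469 rat promoter windows) at bases -30 to -25 from the start, and a half-site of the cAMP response element (TGACG, in 21.2%) at -137 to -133. Ppargc1a holds the whole cAMP response element (TGACGTCA, in 1.83%) at -181 to -174, which contains 2 overlapping half-sites, and another half-site on the opposite strand at 25 to 29. Ucp3 holds the nuclear receptor half-site AGGTCA (in 16.2%) at -155 to -150 and at -50 to -45. Ppargc1b holds 5 GC boxes (GGGCGG, in 33.1%), with a pair that overlaps at -80 to -71, and no other motif of the set. Its GC content was 77% with 38 CpG dinucleotides, against 50.3% and 4 in Ppargc1a. No match to the 6 motifs was found in the Ucp2 window, the Dio2 window (not shown) held TATAAA at -220 to -215, and the E-box CACGTG (in 6.42%) was found in none of the 6 genes. Ucp2 and Ucp3 are neighbours on chromosome 1 with 0 annotated genes between them, and 10479 bases separate the end of Ucp3 from the start of Ucp2. Their windows had GC contents of 63.3% and 54%. These are matches of letters, and nothing about binding was measured.

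Before the 6 genes are described, 2 properties of the arrays need to be known. The first is the direction of the labels. Pdk4, which inhibits pyruvate dehydrogenase, averaged 6.84 ± 0.60 on arrays labelled food removed and 9.78 ± 0.46 on arrays labelled ad lib (SD, n = 6 each), a log2 fold change of -2.95 (limma, adjusted p = 0.000237). The ketone body receptor Hcar2 (-2.67) and the lipase inhibitor Angptl4 (-2.08) had the same sign, and the adipokine Lep had the other (1.55, adjusted p = 0.0255 from limma). For Pdk4, Hcar2 and Angptl4 this is opposite to the direction the study describes, so groups are named here by their labels only, and every sign below would turn if the labels were exchanged. The adipocyte genes Adipoq and Lpl had log2 fold changes of -0.17 and 0.02, and neither passed the test.

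The second is RNA of the neighbouring organ. The summed signal of 12 epididymis markers (of 18 listed, such as the lipocalin Lcn5 and the glutathione peroxidase Gpx5) was 128700 on food removed replicate 3, with 12 of 12 markers detected. It was 3869 on food removed replicate 5 (5 of 12 detected), 1150 on food removed replicate 4 (7 of 12) and 3469 on ad lib replicate 6 (5 of 12). On the other arrays it was 117 to 244, with 1 to 5 markers detected. The markers did not rise alike. Among arrays labelled ad lib the highest Lcn5 was 11.16 and the highest Gpx5 5.68, against 14.49 and 15.01 among arrays labelled food removed. The part of this RNA in the results below was not tested beyond leaving out the 4 arrays over 1000, a choice made after the data were seen, which keeps 3 food removed and 5 ad lib arrays. The summed signal of 7 adipocyte markers was 74820 to 95100 on arrays labelled food removed and 85760 to 110900 on arrays labelled ad lib. That of 5 endothelial markers was 2991 to 7568 on arrays labelled food removed and 6644 to 10180 on arrays labelled ad lib, with 1 called lower, Cldn5 (-0.88, adjusted p = 0.0482 from limma), and the part of vessel cells in the results was not tested either.

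None of the 6 genes passed the test between the groups. All 6 probes passed the detection filter (detection p under 0.05 on at least 6 of 12 arrays). In limma's moderated test over 12196 probes with Benjamini-Hochberg adjustment, 0 of 6 had an adjusted p under 0.05, where 301 of all tested probes (2.47%) did, 1.05% higher and 1.42% lower. At an unadjusted p under 0.05 the count was 1, Ucp3, where 15.9% of all tested probes passed. In no gene did the 6 arrays of a group lie wholly apart from those of the other, which happened for 2.5% of tested probes. Ucp1, Ucp3 and Ppargc1b had negative fold changes, Ppargc1a a positive one, and Ucp2 and Dio2 were at -0.01 and -0.02.

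**Figure D1:**
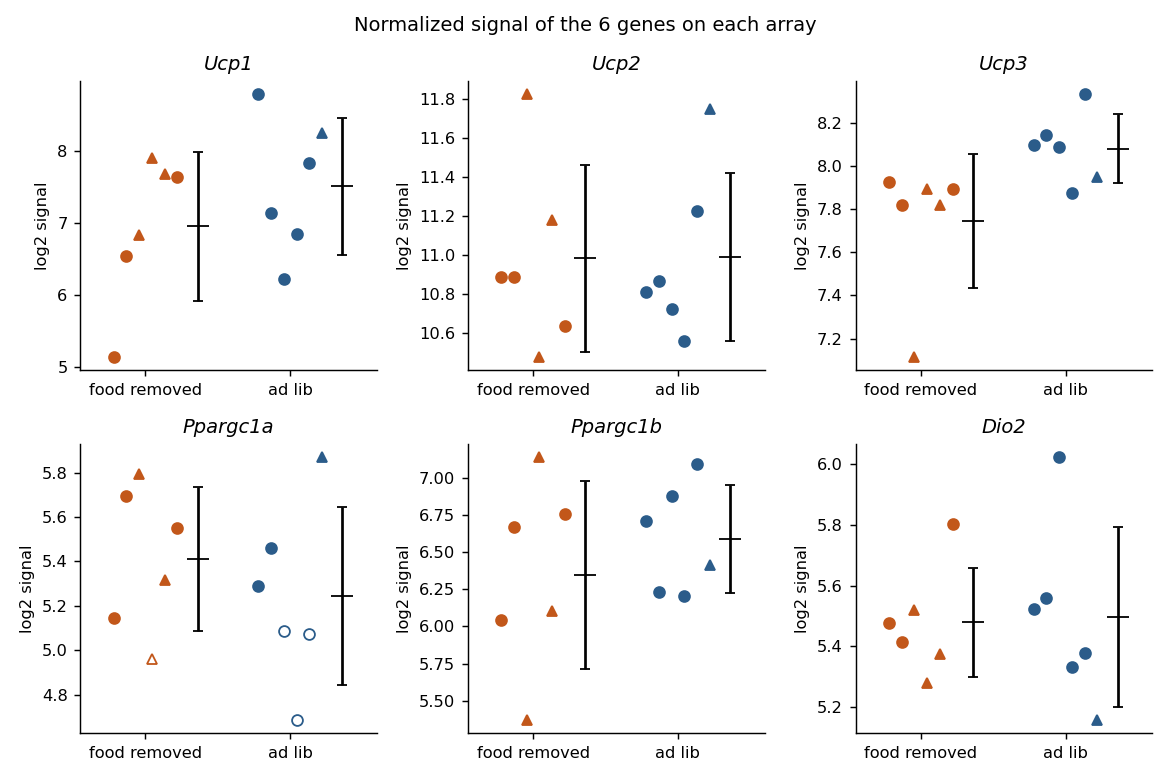
Log2 signal of each gene on every array, food removed left of ad lib, in replicate order. Filled symbols are detected and open symbols not detected (p under 0.05), triangles are the 4 arrays with epididymis marker signal over 1000, and bars are mean ± SD (n = 6). The groups overlap in all 6 panels, and Ppargc1a holds all 4 open symbols.

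**Figure D2:**
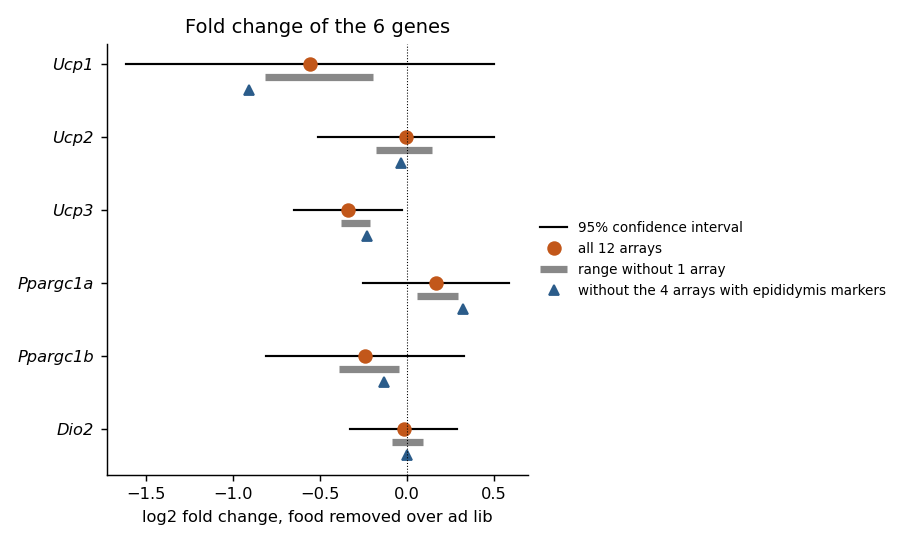
Log2 fold change of each gene, food removed over ad lib. Circles are the fit to all 12 arrays with its 95% confidence interval, grey bars the range when 1 array at a time is left out, and triangles the fit without the 4 arrays with epididymis markers. The interval of Ucp3 alone does not reach 0, and that of Ucp1 is the widest.

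Ucp1, the heat-producing isoform, differed most from array to array. On the arrays labelled food removed the log2 signals were 5.13, 6.53, 6.83, 7.89, 7.68 and 7.64 (replicates 1 to 6). On the arrays labelled ad lib they were 8.79, 7.13, 6.22, 6.84, 7.83 and 8.25. The lowest array was food removed replicate 1 and the highest ad lib replicate 1, with the other 10 spread between them in both groups. The fit put the log2 fold change at -0.56 ± 0.49 (SE, with a 95% interval of -1.62 to 0.50), with an adjusted p of 0.642 from limma and p = 0.357 in a two-sided exact permutation test. This interval runs as a fold from 0.326 to 1.42. The value was -0.19 without food removed replicate 1, -0.30 without ad lib replicate 1, and -0.91 without the 4 arrays with epididymis markers (adjusted p = 0.494 from limma).

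The spread of Ucp1 was large for a probe of its brightness. Its highest and lowest arrays differed by 3.65 on the log2 scale, a 12.6-fold range. Its SD within groups was above that of 98.5% of all tested probes and of 97.5% of 1648 probes within 0.5 log2 units of its mean signal. The standard error over the beads of 1 array was 3.28 to 5.19% of the raw signal, which includes background. The raw signal was 106 on the lowest array, which lay just inside the detection limit, and 752 on the highest. Of the other brown fat markers, Cidea was detected on 12 of 12 arrays and stayed within 10.93 to 11.65 on arrays labelled food removed and 11.03 to 11.74 on arrays labelled ad lib. Cox8b was detected on 5 of 6 arrays labelled food removed and on 4 of 6 labelled ad lib. It was at 5.11 to 6.42 on arrays labelled food removed and 4.70 to 6.36 on arrays labelled ad lib. Zic1, a marker of classical brown fat, was detected on 0 of 12 arrays and the elongase Elovl3 on 1 array of each group. The summed signal of the 6 brown fat markers on the chip was 2105 to 3411 on arrays labelled food removed and 2232 to 3640 on arrays labelled ad lib. These 6 include Ucp1 and Dio2, and Cidea is by far the brightest, so the sum mostly repeats the Cidea values.

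Ucp2 was the brightest of the 6 probes and averaged 10.98 ± 0.48 on arrays labelled food removed and 10.99 ± 0.43 on arrays labelled ad lib (SD, n = 6 each). Its log2 signals were 10.89, 10.89, 11.82, 10.48, 11.18 and 10.64 on arrays labelled food removed, against 10.81, 10.87, 10.72, 10.56, 11.23 and 11.75 on arrays labelled ad lib. Between groups the log2 difference was -0.01 ± 0.24 (SE, with a 95% interval of -0.51 to 0.50), at an adjusted p of 0.993 in limma and p = 0.978 in the exact permutation test. As a fold this interval runs up to 1.41. The sign turned to 0.14 with chip position as a covariate, and it turned also when single arrays were left out.

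The highest Ucp2 arrays were food removed replicate 3 and ad lib replicate 6, which also carried epididymis marker signal, whereas food removed replicate 4, with less of it, had the lowest Ucp2. Without the 4 arrays the range over all arrays was 0.67 on the log2 scale, against 1.34 with them, and the log2 fold change was -0.03. The range had to narrow, because both its ends are among the arrays left out. Macrophages also express Ucp2. The summed signal of 8 macrophage markers was 8537 to 16190 on arrays labelled food removed and 12710 to 18410 on arrays labelled ad lib, and 0 of the 8 were called. The 8537 was on food removed replicate 3, which had the highest Ucp2. That of 7 lymphocyte markers was 545.4 on this array and 521.8 on ad lib replicate 6. It was highest, 568.9, on food removed replicate 4, which had the lowest Ucp2. The part of immune cells in the Ucp2 values was not tested.

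Ucp3 was the only member with a difference at the unadjusted threshold. The arrays labelled food removed had 7.93, 7.82, 7.11, 7.90, 7.82 and 7.90, and the arrays labelled ad lib had 8.10, 8.14, 8.09, 7.88, 8.33 and 7.95. All 6 food removed arrays lay below the ad lib mean, and ad lib replicate 4 was the only array of its group within the food removed range. Between groups the log2 difference was -0.34 ± 0.14 (SE, with a 95% interval of -0.65 to -0.03), a ratio of 0.792. The exact permutation test gave p = 0.00866 and limma an unadjusted p of 0.0352, but the adjusted p over all tested probes was 0.272, so Ucp3 is not called.

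Food removed replicate 3 stood apart in Ucp3 as well. Its 7.11 was below the next lowest array of its group, 7.82, whereas its Ucp2 signal was the highest of all. Without this array the log2 fold change of Ucp3 was -0.21, and without the 4 arrays with epididymis markers -0.23 (adjusted p = 0.445 from limma). Of the skeletal muscle markers, Acta1, the muscle α-actin, was high on some of the same arrays. It was at 10.34 on food removed replicate 3, 8.42 on food removed replicate 5 and 8.71 on ad lib replicate 6, whereas the fast and slow myosin genes Myh2, Myh4 and Myh7 were detected on 0 of 12 arrays. Tnnt3, a fast troponin T, was at 6.09 to 7.30 on arrays labelled food removed and 6.45 to 8.13 on arrays labelled ad lib, and the myoglobin gene Mb at 4.62 to 6.12 on arrays labelled food removed and 5.31 to 6.84 on arrays labelled ad lib. The summed signal of the 10 muscle markers on the chip was 255.7 to 1443 on arrays labelled food removed and 209.5 to 684.5 on arrays labelled ad lib, and 0 of the 3 markers that could be tested were called. The highest sums, 1443 on food removed replicate 3 and 684.5 on ad lib replicate 6, are mostly Acta1. The part of muscle RNA in the Ucp3 values was not tested.

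**Figure D3:**
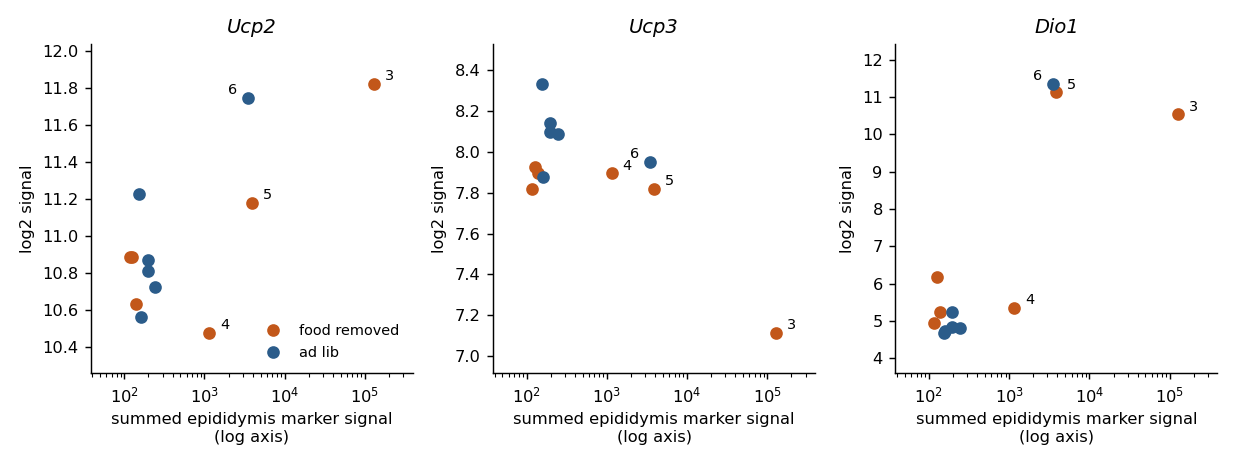
Log2 signal of Ucp2, Ucp3 and Dio1 against the summed signal of 12 epididymis markers on each of the 12 arrays (log axis), coloured by group. Numbers are the replicates of the 4 arrays over 1000. Food removed replicate 3, at 128700, has the highest Ucp2 and the lowest Ucp3, and Dio1 is above 10 on 3 of these arrays only.

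Set beside all tested probes, the 3 isoforms differed in brightness. Ucp2 was brighter than 85.6% of tested probes, Ucp3 than 49.1% and Ucp1 than 40.0%. Brightness depends also on each probe's own sequence, so these ranks give no order of mRNA amounts. What an array can show is whether 2 isoforms changed unequally, through the difference of their log2 signals on the same array. Ucp2 minus Ucp1 averaged 4.03 ± 1.22 on arrays labelled food removed and 3.48 ± 0.81 on arrays labelled ad lib (SD, n = 6 each), a difference of 0.55 (interval -0.82 to 1.92, exact permutation p = 0.387). Ucp3 minus Ucp1 averaged 0.79 ± 1.08 on arrays labelled food removed and 0.57 ± 0.94 on arrays labelled ad lib, a difference of 0.22 (-1.04 to 1.56, exact permutation p = 0.725).

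For the neighbouring genes, Ucp2 minus Ucp3 averaged 3.24 ± 0.77 on arrays labelled food removed and 2.91 ± 0.44 on arrays labelled ad lib. The difference was 0.33 (interval -0.40 to 1.16, exact permutation p = 0.444). This difference of signals was 4.71 on food removed replicate 3 and 3.80 on ad lib replicate 6, each above the rest of its group. With Benjamini-Hochberg adjustment over the 4 isoform pairs compared, the permutation tests gave 0.592 to 0.725. The intervals leave room for unequal changes of more than 1 log2 unit in each uncoupling protein pair, so an equal response was not shown either.

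**Figure D4:**
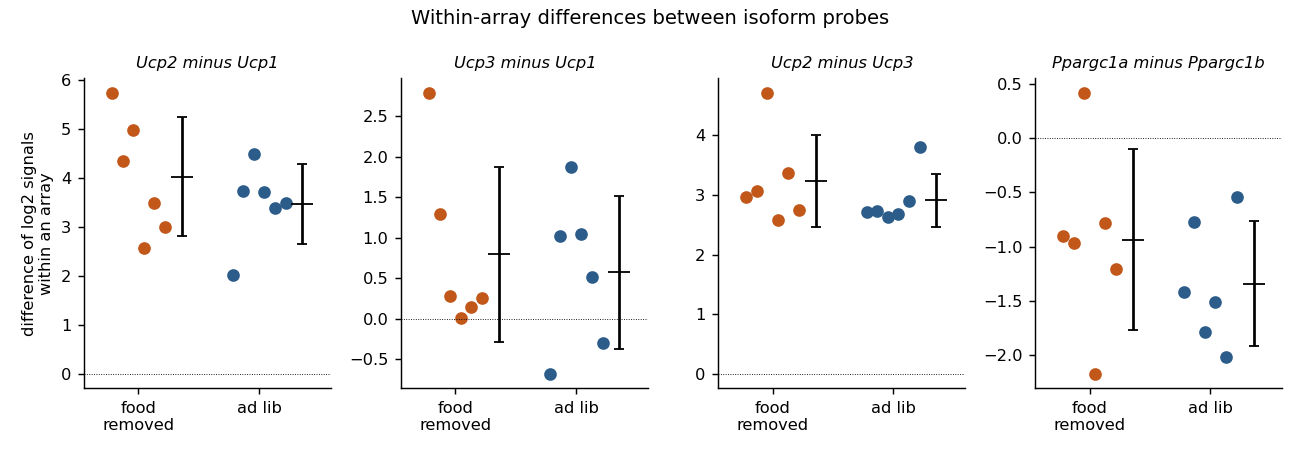
Difference of the log2 signals of 2 isoform probes on the same array, food removed left of ad lib, with mean ± SD (n = 6). The groups overlap in all 4 pairs, and food removed replicate 3 is the highest point of Ucp2 minus Ucp3 (4.71) and of Ppargc1a minus Ppargc1b.

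Ppargc1a, the cold- and cAMP-inducible coactivator, was the dimmest of the 6. It was detected on 5 of 6 arrays labelled food removed and on 3 of 6 labelled ad lib, and it was brighter than 7.26% of tested probes. The log2 signals were 5.14, 5.70, 5.79, 4.96, 5.32 and 5.55 on arrays labelled food removed and 5.29, 5.46, 5.09, 4.69, 5.07 and 5.87 on arrays labelled ad lib. Each group had an array near 5.8 and another below 5. Between groups the log2 difference was 0.17 ± 0.20 (SE, with a 95% interval of -0.25 to 0.59), at an adjusted p of 0.744 in limma and p = 0.446 in the exact permutation test. The size for so dim a probe depends on how the background is treated, and without background correction it was 0.06. Without the 4 arrays with epididymis markers it was 0.32 (adjusted p = 0.431 from limma).

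Ppargc1b, the other coactivator, was detected on all 12 arrays. Its log2 signals were 6.04, 6.67, 5.37, 7.14, 6.10 and 6.76 on arrays labelled food removed, against 6.71, 6.23, 6.88, 6.20, 7.09 and 6.41 on arrays labelled ad lib. The lowest value was again on food removed replicate 3 and the highest on food removed replicate 4, so that group spanned all of the ad lib values. Between groups the log2 difference was -0.24 ± 0.26 (SE, with a 95% interval of -0.81 to 0.33), at an adjusted p of 0.724 in limma and p = 0.442 in the exact permutation test. Without food removed replicate 3 it was -0.05, and without the 4 arrays with epididymis markers -0.13. The coactivators had opposite signs, but Ppargc1a minus Ppargc1b averaged -0.94 ± 0.83 on arrays labelled food removed and -1.34 ± 0.58 on arrays labelled ad lib, a difference of 0.41 (interval -0.48 to 1.33, exact permutation p = 0.355). Their relative Pprc1 was at 9.01 to 9.47 on arrays labelled food removed and 8.80 to 9.27 on arrays labelled ad lib, with a log2 fold change of 0.20 (adjusted p = 0.454 from limma).

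Dio2 had the narrowest range, 0.87 on the log2 scale. Its log2 signals were 5.48, 5.42, 5.52, 5.28, 5.38 and 5.80 on arrays labelled food removed and 5.52, 5.56, 6.02, 5.33, 5.38 and 5.16 on arrays labelled ad lib. It was detected on 12 of 12 arrays but was brighter than only 11.4% of tested probes. Background left in the signal of so dim a probe shrinks log2 differences, so the narrow range does not show stable expression. Between groups the log2 difference was -0.02 ± 0.14 (SE, with a 95% interval of -0.32 to 0.29), at an adjusted p of 0.974 in limma and p = 0.892 in the exact permutation test. The median was 5.45 in both groups. The other activating deiodinase, Dio1, singled out after its values were seen, behaved otherwise. It was at 10.53 and 11.12 on food removed replicates 3 and 5 and 11.35 on ad lib replicate 6, and within 4.69 to 6.17 on the other 9 arrays, so its high arrays are among those with epididymis markers.

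Calls among the genes around these 6 are given list by list, beside the share over all tested genes. The lists were chosen with earlier results of these data known. Among all 8583 tested genes, 2.57% were called, 1.01% higher and 1.56% lower, with a median log2 fold change of -0.01. Of 10 tested thermogenic genes of brown and beige fat, 0 were higher, 1 was lower and 9 were not called, with a median of -0.08. The called gene was Plin5, a lipid droplet protein of oxidative tissues. It was at 7.53, 7.99 and 8.47 (lowest, median and highest) on arrays labelled food removed and at 8.60, 8.83 and 9.25 on arrays labelled ad lib, without overlap (log2 fold change -0.87, adjusted p = 0.0159 from limma). Without the 4 arrays with epididymis markers the log2 fold change was -0.79, with an adjusted p of 0.0727 over the 8 arrays left.

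Of 26 tested relatives, binding partners and regulators of PGC-1, 1 was higher, 2 were lower and 23 were not called, with a median of -0.04. Rxrg, a retinoid X receptor that pairs with PPARs, was at 10.20, 11.04 and 11.76 on arrays labelled food removed, against 12.20, 12.52 and 12.99 on arrays labelled ad lib (log2 fold change -1.54, adjusted p = 0.00278 from limma). Lpin1, a phosphatidate phosphatase that also coactivates PPARα with PGC-1α, was at 9.85, 10.39 and 10.71 on arrays labelled food removed, against 10.82, 11.20 and 12.17 on arrays labelled ad lib (-0.98, adjusted p = 0.0383 from limma). Esrrg, an orphan nuclear receptor that PGC-1 coactivates, was at 5.63, 5.92 and 6.15 on arrays labelled food removed and 5.03, 5.23 and 5.58 on arrays labelled ad lib (0.63, adjusted p = 0.0224 from limma), and it was detected on 6 of 6 arrays labelled food removed and 4 of 6 labelled ad lib. The sign of Esrrg is thus the opposite of Rxrg and Lpin1. Lpin1 lost its call in 13 of 24 alternatives (-0.75 and adjusted p = 0.17 in limma without the 4 arrays with epididymis markers) and Esrrg in 9 of 23, whereas Rxrg lost it only with chip position as a covariate.

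Of 31 mitochondrial biogenesis targets of PGC-1, among them respiratory chain subunits and mitochondrial DNA factors, 0 were higher and 0 were lower, with fold changes from -0.39 to 0.25 on the log2 scale and a median of -0.04. The smallest p-values were those of the outer membrane channel Vdac1 (-0.39, adjusted p = 0.0833 from limma) and the fusion protein Mfn2 (-0.26, adjusted p = 0.327). With no background correction, and with a trended robust eBayes, 1 of the 31 was called lower. Of 10 carriers related to the uncoupling proteins, 1 was lower and 9 were not called, with a median of 0.04. The called gene was Slc25a20, the carnitine-acylcarnitine carrier, at 7.40, 7.93 and 8.04 on arrays labelled food removed, against 8.31, 8.71 and 8.98 on arrays labelled ad lib (-0.82, adjusted p = 0.00727 from limma). The brain-type uncoupling protein relatives Slc25a14 and Slc25a27 had 0.05 and -0.05.

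Of 11 genes of thyroid hormone activation and action, 0 were called in either direction, with a median of -0.03. The lowest p-values were those of the amino acid and thyroid hormone transporter Slc16a10 (-0.83, adjusted p = 0.0761 from limma) and the nuclear receptor coactivator Ncoa1 (-0.58, adjusted p = 0.0769). Without food removed replicate 3, without replicate 4, without the 4 arrays with epididymis markers, and with array weights, 1 gene of this list was called lower. Of 18 genes of adrenergic and cAMP input, 0 were called, with a median of -0.01. Prkar2b, a regulatory subunit of protein kinase A, had -0.41 (adjusted p = 0.142 from limma) and the insulin-activated phosphodiesterase Pde3b -0.35 (adjusted p = 0.419). Adrb3, the β3-adrenergic receptor of fat cells, was at 10.66 to 12.51 on arrays labelled food removed and 11.27 to 12.67 on arrays labelled ad lib.

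**Figure D5:**
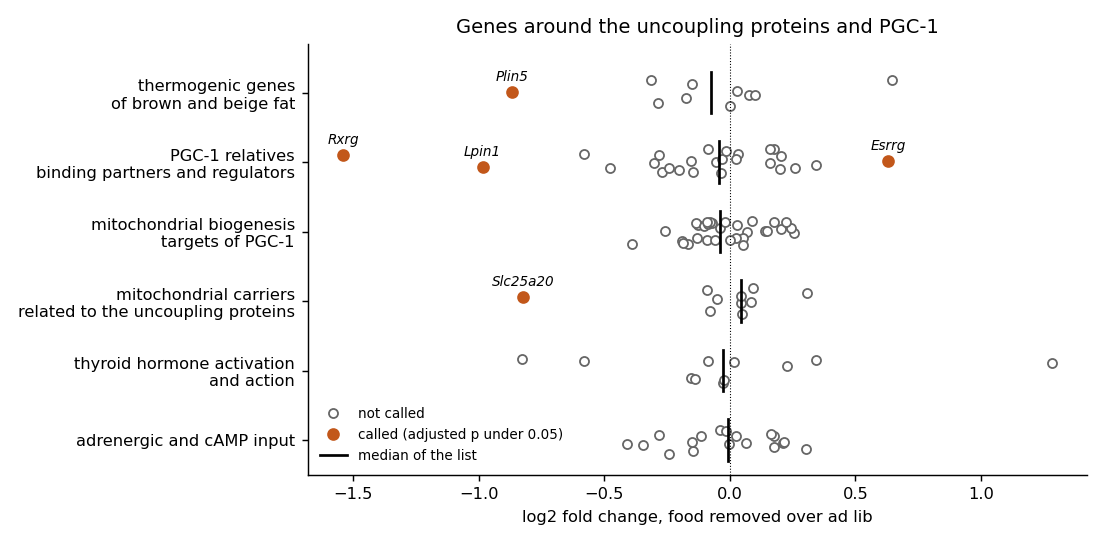
Log2 fold change, food removed over ad lib, of the tested genes of 6 lists. Filled circles are called and named, open circles are not called, and black bars are list medians. Called genes number 5, and the medians run from -0.08 to 0.04.

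The genes most like each of the 6 were then looked for among all tested genes. After the mean of its own group was taken off each value, the tested genes that followed Ucp2 most closely over the 12 arrays were Hes6 (Pearson's r 0.96, Spearman's rho 0.90), Cadm1 (0.96 and 0.87) and Abhd8 (0.94 and 0.90). For Ucp3 they were mrpl24 (0.97 and 0.88), Nkiras2 (0.94 and 0.78) and Josd2 (0.94 and 0.83), whose r without food removed replicate 3 was 0.90, 0.83 and 0.80. For Ucp1 they were Nfkbil1 (0.89 and 0.82), Zscan21 (0.89 and 0.90) and Tmed1 (0.87 and 0.80).

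Ppargc1a was followed most closely by Best1 (r 0.95, rho 0.92), Diablo (0.89 and 0.87) and Dhdds (0.88 and 0.89), and Dio2 by Satl1 (0.93 and 0.82), Pde7a (0.89 and 0.76) and Nup205 (0.89 and 0.77). For Ppargc1b the nearest were Plekhg2 (0.93 and 0.87), the adenosine receptor gene Adora2a (0.93 and 0.91) and the ceramidase gene Acer2 (0.93 and 0.91). Adora2a was itself called, at 8.36 to 9.65 on arrays labelled food removed and 9.69 to 10.15 on arrays labelled ad lib (log2 fold change -0.89, adjusted p = 0.0187 from limma). These are the highest of 8583 correlations each, given as a description.

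Among the 15 pairs of the 6 genes, none was correlated after adjustment. The closest were Ucp3 with Ppargc1b (r = 0.75, permutation p = 0.00455, adjusted 0.0683, and rho = 0.62, permutation p = 0.0376, adjusted 0.282) and Ucp2 with Ppargc1a (r = 0.70, permutation p = 0.0111, adjusted 0.0831, and rho = 0.62, permutation p = 0.0338, adjusted 0.282). Without the 2 arrays farthest from the median of the uncoupling protein, r was 0.40 for Ucp3 with Ppargc1b and 0.33 for Ucp2 with Ppargc1a. Leaving out the farthest arrays also narrows the range, which by itself lowers r, so this cannot show how far the correlations rest on them. Ucp2 and Ucp3, the chromosomal neighbours, had r = -0.56 (permutation p = 0.0586) over 12 arrays and 0.44 without 2 arrays, and rho = -0.12 (permutation p = 0.718). Over the 12 arrays Ucp1 had Pearson's r from -0.36 to 0.31 and rho from -0.35 to 0.38 with the other 5.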

How the data were processed

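The authors deposited the raw signal intensity of each probe with a detection p-value against negative control probes, and a table of normalized intensities on a linear scale. Per the methods, that table was made by cubic spline in Illumina's program, and the submitters' processing notes name GenomeStudio. The order of probes within an array was the same in both tables, and any further centring of the normalized table is not given in the sources used here. The log2 values were computed here from the deposited raw signals by limma 3.58.1 under R 4.3.3, using neqc with an offset of 16 and quantile normalization. Background that stays in the signal, and a larger offset, shrink the fold changes of dim probes. Probes detected (p under 0.05) on at least 6 of 12 arrays entered lmFit and eBayes. Tests were two-sided, and p-values were adjusted by Benjamini-Hochberg over all tested probes. The steps were tested on simulated data, where 32% of log2 changes of 0.5 and 78% of changes of 1 were recovered. A gene that is not called may thus still have changed, within limits set by its own confidence interval. The interval of Ucp1 (-1.62 to 0.50) reaches a log2 change of size 1. Those of Ucp2, Ucp3, Ppargc1a and Ppargc1b reach a size of 0.5 but not 1. That of Dio2 (-0.32 to 0.29) reaches neither. For dim probes such as Ppargc1a and Dio2 the intervals describe the measured signal, in which changes may be shrunk.

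Samples were grouped by their labels. A p-value here judges the difference between groups against the spread between these samples, which the methods describe as 6 rats per group. In limma that spread is moderated by the spread of all tested probes. The number of arrays and the signal over background limit the precision. Gene symbols come from the platform annotation (1 symbol for 13793 probes, none for 8730). A gene with several probes is represented by its brightest. Promoters and coordinates are from RefSeq (GRCr8), and all 6 genes matched.

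The members and lists were chosen with earlier results of these data known. Named are the 6 genes, the called members of each list or else the 2 with the smallest p, the 3 genes most like each member, and 6 genes that check labels and tissue. Others named (Dio1, Pprc1, Slc25a14, Slc25a27, Adrb3 and single markers) were chosen after their values were seen. Other settings tried were a median shift, raw signals without background correction, the authors' values, an offset of 50, no filter, detection on all arrays, a trended robust eBayes, weights for arrays, a block for replicate number, chip position as a covariate, the methods' t-test, and leaving out each array. Leaving out the arrays with epididymis markers was added after the data were seen.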

Additional observations from a re-analysis of the deposited data

Results flagged for a closer look

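In groups of 6, a sample was looked at again where its gap to the nearest other sample was large for the range of its group. Chance flags about 1 in 20 groups, and 4 of 32 were flagged here. These groups are not independent, because the isoform differences reuse the members' values and the same arrays recur. The count therefore cannot be read as an excess. Ucp3 was 7.11 on food removed replicate 3, with the nearest array of that group at 7.82. Ucp2 minus Ucp3 was 4.71 on food removed replicate 3 (nearest 3.36) and 3.80 on ad lib replicate 6 (nearest 2.89). Lpl was 14.73 on food removed replicate 3, with the nearest at 14.84. Both arrays carry epididymis markers (summed signal 128700 and 3469), and food removed replicate 3 had the lowest summed signal of 7 adipocyte markers, 74820, against 85760 to 110900 on arrays labelled ad lib. The part of these signals in the flagged values was not tested.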

How the results depend on the processing

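Over 143 alternative fits of the 6 genes, 0 were called, and the lowest adjusted p was 0.0969 (Ucp3 with array weights, limma). The fold changes of Ucp1, Ucp3, Ppargc1a and Ppargc1b kept their sign in every alternative run. Ucp2 turned to 0.14 with chip position, and Dio2 to 0.027 with array weights and to 0.0016 without the arrays with epididymis markers. With single arrays left out, the log2 fold changes were -0.82 to -0.19 for Ucp1, -0.18 to 0.15 for Ucp2, -0.38 to -0.21 for Ucp3, 0.06 to 0.29 for Ppargc1a, -0.39 to -0.05 for Ppargc1b and -0.085 to 0.090 for Dio2. The isoform differences were then 0.21 to 0.83 (Ucp2 minus Ucp1), -0.18 to 0.48 (Ucp3 minus Ucp1), 0.04 to 0.51 (Ucp2 minus Ucp3) and 0.13 to 0.64 (Ppargc1a minus Ppargc1b), and without the 4 arrays with epididymis markers they were 0.88, 0.68, 0.20 and 0.45 in that order of pairs, with adjusted exact permutation p = 0.286 to 0.411. Ppargc1a has no value when detection on all 12 arrays is required. No gene has another probe, so that alternative was not run. The count of called probes, 301, was 103 with a median shift, 840 with array weights, 32 with chip position, 353 without the arrays with epididymis markers, and 157 (without ad lib replicate 5) to 488 (without food removed replicate 4) with single arrays left out. Without food removed replicates 1, 2, 5 and 6 it was 185, 181, 187 and 186. The methods' t-test gave 1909 probes unadjusted and 230 adjusted. Arrays labelled food removed lie at chip positions 1 and 3 to 7 and those labelled ad lib at 2 and 8 to 12, so position and group can hardly be told apart. Same-numbered arrays did not vary together (r -0.41 to 0.13, 0 of 6 best with their own number), and with the replicate number as a block 178 probes were called and Ucp3 had an adjusted p of 0.363 (limma). Plin5 lost its call in 4 of 24 alternatives and Slc25a20 in 1 (chip position, adjusted p = 0.199 from limma). The cause of these changes was not tested. Signal close to background limits Ppargc1a and Dio2.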
